A study of Mus musculus with 8 samples.

Results

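Dynein and dynactin genes were analysed as 38 of the 17258 genes in a table of seminal vesicle transcripts, chosen by the start of their symbol alone (Dnah, Dnaic, Dnaaf, Dnal, Dync, Dynl and Dctn). They comprised 17 axonemal genes, 15 cytoplasmic dynein genes and 6 dynactin genes. A further 10 genes of these families in the RefSeq annotation, among them Dnah3, Dnah5, Dnah6, Dnah10 and Dnah12, were not analysed here. Dnaaf4, listed under its older symbol Dyx1c1, does not match and was not counted. The tissue came from male outbred Swiss mice, 8 to 12 weeks old. In the acrylamide group, 4 mice received 25 mg/kg body weight of acrylamide, a compound formed in starchy food at high heat, intraperitoneally on 5 mornings in a row. In the control group, 4 mice received only the carrier, phosphate buffered saline, on the same schedule. Seminal vesicles of both groups were taken 72 h after the last dose, freed of prostate and emptied of fluid, and their poly(A) RNA was sequenced.

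Dyneins are motors that walk along microtubules on heavy chains that split ATP. Axonemal dyneins form the inner and outer arms that bend motile cilia and sperm tails, and assembly factors build these arms in the cytoplasm before they are carried into the cilium. Cytoplasmic dynein is used by cells in general, where it moves organelles, vesicles and chromosomes with the help of dynactin, while another form returns cargo from the tip of the primary cilium. The seminal vesicle is lined by a secretory epithelium and is not known for motile cilia.

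Each group has a single deposited value per gene, on the scale of reads divided by the size factor of a library (normalised reads). For genes with few reads, the digits of these values gave back the whole reads in each of the 8 libraries. This held for 5086 genes, 12 of them dynein genes, all axonemal. The libraries are numbered within their group by size factor and could not be matched to single mice. The other 26 members have group values only, and therefore no spread and no test. Over the 5086 genes, the summed normalised reads ranged between 22328 and 27705 in acrylamide libraries and between 20651 and 21684 in control libraries, so genes with few reads were higher in acrylamide libraries in general. The tissue matched its label, with 10 seminal vesicle secretory genes holding 66.9% of all normalised reads in acrylamide treated tissue and 69.6% in control tissue. In bulk tissue, more RNA per cell and more cells of a type cannot be told apart.

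The heavy chains of axonemal dynein held few reads in either group, and those of the inner arm genes Dnah1 and Dnah2 came from acrylamide libraries only. Of the 8 axonemal heavy chains, 7 had more normalised reads on average in acrylamide libraries than in control libraries and Dnah11 had fewer, while 56.7% of all 5086 genes with reads per library had more in acrylamide libraries. Summed over the 8 genes, 142 reads fell in acrylamide libraries and 52 in control libraries. None of these genes passed the test across all genes with reads per library (limma on log2 of normalised reads with 1 added, adjusted p of at most 0.1). That test called 0 of 3173 genes higher and 0 lower, which is 0% in each direction, while 185 genes (5.83%) were higher and 56 (1.76%) lower at an unadjusted limma p under 0.05, among them Dnah1, Dnah2 and Dnah9, all higher. The voom form of limma also called 0 genes, and the lowest adjusted p of the exact permutation test over these genes was 0.714. With 4 libraries per group, the smallest unadjusted p of the permutation test is 0.0286. After adjustment it could reach 0.1 only if a large share of the 3173 genes had that p, so no conclusion is drawn from it.

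**Figure D1:**
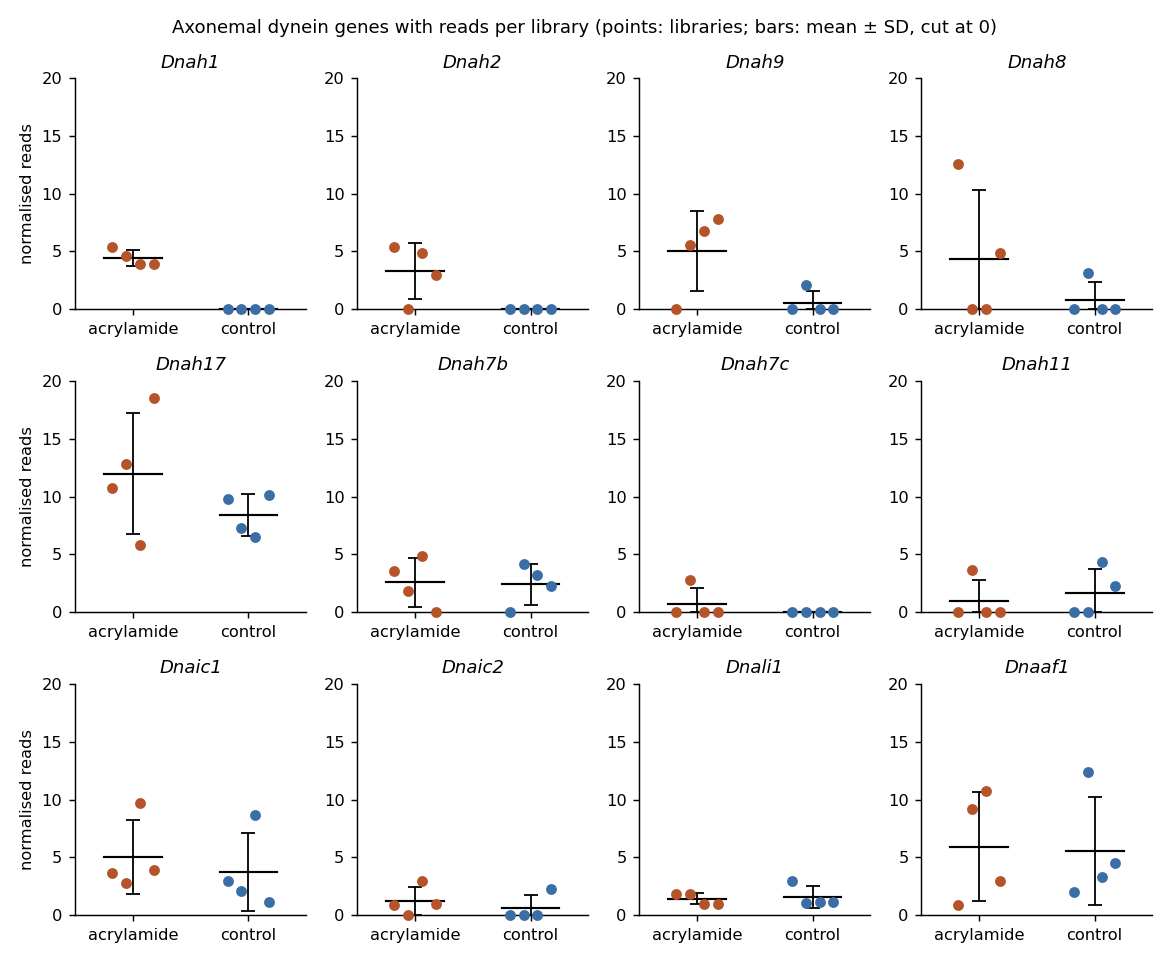
Normalised reads of the 12 axonemal dynein genes with reads per library, in 4 acrylamide libraries and 4 control libraries per panel. Points are libraries, the horizontal line is the group mean and the vertical bar its SD, drawn down to 0 at most. All 4 acrylamide libraries of Dnah1 lie between 3.89 and 5.39, against 0 in all 4 control libraries, and in the other 11 genes the groups overlap.

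Dnah1, a heavy chain of the inner arms that sperm tails need in mouse and human, separated the groups fully. It had 6, 5, 4 and 4 reads in acrylamide libraries 1 to 4, against 0 reads in each control library. Every acrylamide library lay above every control library. The mean was 4.44 ± 0.711 normalised reads in acrylamide libraries and 0 in control libraries (SD, n = 4 each). Set against a floor of 3 reads over the 4 control libraries, its acrylamide mean was 5.62-fold higher. This ratio leaves out counting error in the acrylamide reads and the spread between libraries, so it is not a lower bound. The exact permutation test over the 70 divisions of the libraries gave a two-sided p of 0.0286, the smallest it can give. In the limma test the log2 difference was 2.44 (SE 0.529) with an adjusted p of 0.187, which missed the threshold, and over 14 alternatives the adjusted p ranged between 0.179 and 0.469. The study's own DESeq2 comparison, whose columns were not read here, listed Dnah1 among its up-regulated genes at the same adjusted p threshold. By limma p it ranked 3 of the 3173 genes. Groups that did not overlap, with acrylamide higher, were found in 73 of the 3173 genes (2.3%) and with acrylamide lower in 54 (1.7%). Among the 55 of these genes with a transcript of at least 10000 bases, as all axonemal heavy chains have, 4 (7.27%) did not overlap with acrylamide higher. Dnah1 was the only one among the 10 axonemal genes tested. Without acrylamide library 1, 2 or 3 there were 2 such genes, Dnah9, Dnah2 or Dnah17 being the second. With fewer libraries groups separate more easily, and the share over all genes was not counted there, so no conclusion is drawn from these counts. A read in every acrylamide library and in no control library was found in 2 of the 3173 genes (0.063%), one of them Dnah1, and the opposite pattern in 5 genes (0.158%). Dnah1 (identifier 110084) lies on chromosome 14 from 31260375 to 31325891 (GRCm38.p6). An antisense gene covers 4.22% of its exon bases, and the sources used here do not state that reads were counted by strand. The same limit holds for other heavy chains, among them Dnah2 (2.08% of exon bases), Dnah9 (3.10%) and Dnah11 (4.44%).

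Dnah2, another inner arm heavy chain, had 6, 0, 5 and 3 reads in acrylamide libraries 1 to 4 and 0 reads in each control library. It was found in 3 of the 4 acrylamide libraries, and the groups overlapped at 0. The mean was 3.29 ± 2.44 normalised reads in acrylamide libraries and 0 in control libraries (SD, n = 4 each). Against the floor of 3 control reads the acrylamide mean was 4.17-fold higher, again without the error of the acrylamide reads. The limma log2 difference was 1.80 (SE 0.646, adjusted p = 0.556), and the exact two-sided permutation p was 0.143. Dnah2 (identifier 327954) lies on chromosome 11 from 69420807 to 69549108.

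Dnah9, a heavy chain of the outer arms of airway cilia, showed a like pattern, with reads in 1 control library. It had 0, 6, 7 and 8 reads in acrylamide libraries 1 to 4, against 0, 2, 0 and 0 reads in control libraries 1 to 4. Acrylamide library 1 was the exception on its side, and the groups overlapped. The mean was 5.03 ± 3.48 normalised reads in acrylamide libraries and 0.518 ± 1.04 in control libraries (SD, n = 4 each). The 21 acrylamide and 2 control reads gave a ratio of 9.36 per summed size factor, with a 95% interval between 2.29 and 82.4 (exact, for counting error only), and the 2 control reads are fewer than the floor of 3 used for Dnah1 and Dnah2, so the 3 ratios cannot be ordered. The limma log2 difference was 1.80 (SE 0.717, adjusted p = 0.568), with an exact two-sided permutation p of 0.143. Dnah9 (identifier 237806) lies on chromosome 11 from 65831324 to 66168581.

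The 250 bases before a RefSeq transcript start of these 3 genes are shown because these were the members with an unadjusted limma p under 0.05, with the same stretch of the dynactin gene Dctn3 for comparison. Sequences are from RefSeq (GRCm38.p6), 5′ to 3′ on the minus strand, on which all of them lie. Capitals mark the whole X-box, the palindromic site of RFX factors that act on cilium genes, which was searched on either strand and found in Dctn3 only. Dnah1 (chr14:31323897-31324146), Dnah2 (chr11:69549109-69549358), Dnah9 (chr11:66168552-66168801) and Dctn3 (chr4:41723164-41723413) are given in this order. The start used for Dnah2 and Dctn3 is the 5′ end of the gene as placed by RefSeq. For Dnah1 the start used lies 1995 bases inside the gene's 5′ end given above, and for Dnah9 30 bases inside it, so the stretch of Dnah1 lies within the gene's outer limits.
Dnah1: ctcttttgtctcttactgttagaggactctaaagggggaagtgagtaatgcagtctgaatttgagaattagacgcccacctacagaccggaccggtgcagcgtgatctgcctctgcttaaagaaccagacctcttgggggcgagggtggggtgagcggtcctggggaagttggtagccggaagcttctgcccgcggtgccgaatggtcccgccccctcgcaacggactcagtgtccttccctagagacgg
Dnah2: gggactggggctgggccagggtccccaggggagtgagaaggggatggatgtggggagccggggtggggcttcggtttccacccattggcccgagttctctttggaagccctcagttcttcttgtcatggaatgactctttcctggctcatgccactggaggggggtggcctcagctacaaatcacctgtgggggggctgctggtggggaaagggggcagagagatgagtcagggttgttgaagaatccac
Dnah9: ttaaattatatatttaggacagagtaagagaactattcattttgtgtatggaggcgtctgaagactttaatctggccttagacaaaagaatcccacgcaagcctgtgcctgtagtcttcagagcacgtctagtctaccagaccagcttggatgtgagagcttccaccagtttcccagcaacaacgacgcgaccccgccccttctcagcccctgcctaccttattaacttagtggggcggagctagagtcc
Dctn3: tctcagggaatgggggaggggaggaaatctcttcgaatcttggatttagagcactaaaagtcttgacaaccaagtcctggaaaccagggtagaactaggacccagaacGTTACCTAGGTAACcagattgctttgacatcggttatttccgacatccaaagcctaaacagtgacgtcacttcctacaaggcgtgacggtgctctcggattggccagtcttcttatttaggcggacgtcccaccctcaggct

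In these stretches 57.6% of the bases were G or C in Dnah1, 60.8% in Dnah2, 48.4% in Dnah9 and 49.6% in Dctn3. Over 250 bases before and 50 after the transcript start used, the whole X-box was found in 0 of 16 axonemal genes and 1 of 14 cytoplasmic and dynactin genes with such a sequence, against 0.529% of 27025 genes. The shorter RFX motif GTTGCC, which matches part of some X-boxes, was found on either strand in 5 of 16 axonemal genes and in 4 of 14 cytoplasmic and dynactin genes, against 14.1% of all genes. The forkhead motif TGTTTAC, of the kind that Foxj1 binds, was found in 1 axonemal gene (Dnah17) and 1 dynactin gene (Dctn2), against 4.05% of all genes. These are matches of letters and not measured sites. Sites that differ from a motif in any fixed letter or in spacing were not counted, so a count of 0 does not mean that such sites are absent.

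The reads of Dnah8, a heavy chain known from sperm tails, came mostly from a single library. It had 14, 0, 0 and 5 reads in acrylamide libraries 1 to 4, against 0, 3, 0 and 0 reads in control libraries 1 to 4. The mean was 4.36 ± 5.94 normalised reads in acrylamide libraries and 0.777 ± 1.55 in control libraries (SD, n = 4 each), with a limma log2 difference of 1.07 (SE 0.820, adjusted p = 0.791). The difference was smaller than the spread between acrylamide libraries.

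Dnah17, the outer arm heavy chain of sperm tails, was the most abundant axonemal heavy chain and had reads in every library. It had 12, 14, 6 and 19 reads in acrylamide libraries 1 to 4, against 10, 7, 6 and 9 reads in control libraries 1 to 4. The lowest acrylamide library lay below every control library once divided by size factor, and the groups overlapped. The mean was 12.0 ± 5.25 normalised reads in acrylamide libraries and 8.43 ± 1.82 in control libraries (SD, n = 4 each), a 1.42-fold difference (limma log2 difference 0.39, SE 0.396, adjusted p = 0.861).

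Dnah11, an outer arm heavy chain known from the embryonic node and airways, was the only heavy chain with fewer reads under acrylamide. It had 0, 4, 0 and 0 reads in acrylamide libraries 1 to 4, against 0, 0, 4 and 2 reads in control libraries 1 to 4. With reads in 1 acrylamide library and 2 control libraries, the limma log2 difference was -0.47 (SE 0.722, adjusted p = 0.912). Dnah7b and Dnah7c, mouse copies of an inner arm heavy chain, had transcripts that were 97.3% identical, so their reads cannot be assigned to either with certainty. Dnah7b had 4, 2, 5 and 0 reads in acrylamide libraries 1 to 4 and 0, 4, 3 and 2 reads in control libraries 1 to 4, a limma log2 difference of 0.03 (SE 0.682, adjusted p = 0.995). Dnah7c had 3 reads, all in acrylamide library 2, and it was not fitted with limma because its mean was under 1.

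The sum over the 8 axonemal heavy chains did not overlap between the groups. It was 37.7, 31.2, 26.3 and 38.0 normalised reads in acrylamide libraries 1 to 4, against 9.80, 16.6, 14.1 and 14.7 normalised reads in control libraries 1 to 4. The mean was 33.3 ± 5.64 in acrylamide libraries and 13.8 ± 2.86 in control libraries (SD, n = 4 each), a 2.42-fold difference. Without Dnah17 the sum over 7 genes was between 18.4 and 26.9 normalised reads in acrylamide libraries and between 0 and 9.32 in control libraries. Control library 1 held no read of these 7 genes. From 5 to 6 of the 8 heavy chains had a read in an acrylamide library, and from 1 to 4 in a control library. No test is given for this sum. Beside it, the summed normalised reads of all 5086 genes did not overlap between the groups either, as given above, and the part of that general difference in the heavy chain sum was not tested.

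**Figure D2:**
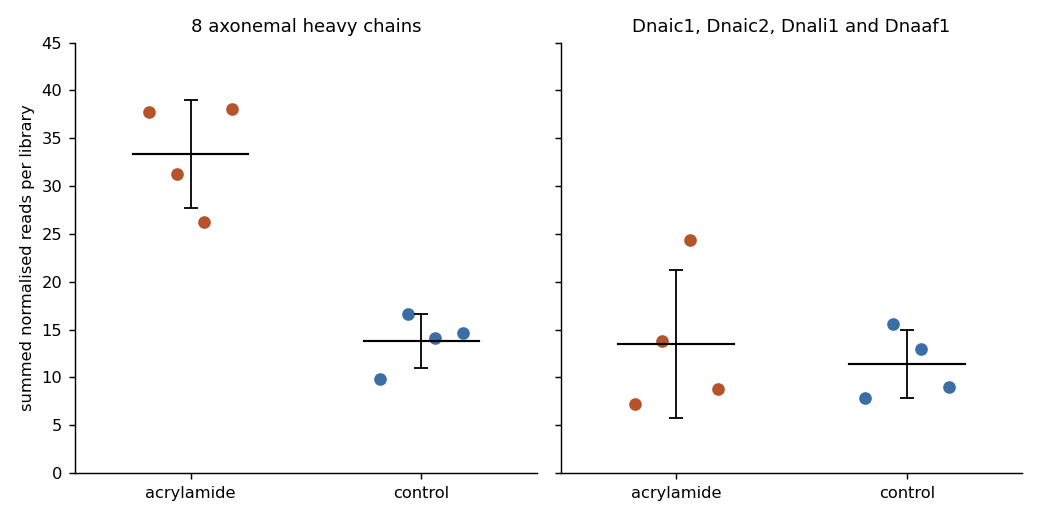
Summed normalised reads per library for the 8 axonemal heavy chains on the left and for Dnaic1, Dnaic2, Dnali1 and Dnaaf1 on the right, with acrylamide libraries beside control libraries. Points are libraries, the horizontal line is the mean and the bar the SD of 4 libraries. The heavy chain sums lie between 26.3 and 38.0 in acrylamide libraries and between 9.80 and 16.6 in control libraries, while the sums of the other 4 genes overlap.

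The other axonemal subunits with reads per library did not separate the groups. Dnaic1, an intermediate chain of the outer arm, had 4, 3, 10 and 4 reads in acrylamide libraries 1 to 4, against 3, 2, 8 and 1 reads in control libraries 1 to 4 (limma log2 difference 0.47, SE 0.575, adjusted p = 0.880). In each group 1 library held the most reads. Dnaic2, its partner in the outer arm, had 1, 0, 3 and 1 reads in acrylamide libraries 1 to 4 and 0, 0, 0 and 2 reads in control libraries 1 to 4, a mean under 1 that was not fitted with limma. Dnali1, a light intermediate chain of the inner arm, had 2, 2, 1 and 1 reads in acrylamide libraries 1 to 4, against 3, 1, 1 and 1 reads in control libraries 1 to 4 (limma log2 difference -0.05, SE 0.548, adjusted p = 0.989). Together with the assembly factor Dnaaf1 these genes held 57 reads in acrylamide libraries and 43 in control libraries. Their summed normalised reads averaged 13.5 ± 7.74 in acrylamide libraries and 11.4 ± 3.56 in control libraries (SD, n = 4 each).

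Dnaaf1, which helps to build the outer and inner arms, was the assembly factor with the lowest level. It had 1, 10, 11 and 3 reads in acrylamide libraries 1 to 4 and 2, 12, 3 and 4 reads in control libraries 1 to 4, with both groups spread widely (limma log2 difference -0.02, SE 0.635, adjusted p = 0.996). The gene Taf1c on the other strand shares 20.7% of its exon bases. The remaining assembly factors had higher values, also per kilobase, than the heavy and intermediate chains of the arms that they build. Dnaaf5, a factor needed early in arm assembly, had group values of 136 normalised reads with acrylamide and 145 in control tissue. Dnaaf2, a partner of chaperones in arm assembly, had 105 with acrylamide and 101 in control tissue. Dnaaf3 had 108 with acrylamide and 87.8 in control tissue, the largest ratio of the 4 assembly factors (1.23-fold, log2 0.30), with no spread to set it against. Outside the rule, Dyx1c1, the assembly factor now called Dnaaf4, had 10, 2, 5 and 8 reads in acrylamide libraries 1 to 4, against 9, 11, 6 and 9 reads in control libraries 1 to 4 (limma log2 difference -0.70, SE 0.469, adjusted p = 0.765).

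The light chains Dnal1 and Dnal4, both counted as axonemal by the rule, also had levels of this order. Dnal1, a light chain that binds the motor domain of an outer arm heavy chain, had 126 normalised reads with acrylamide and 112 in control tissue. Dnal4, an outer arm light chain by name, had 209 with acrylamide and 224 in control tissue. Thus 5 axonemal genes (3 assembly factors and 2 light chains) lay above 80 in control tissue and the other 12 under 10. An overlapping gene shares 32.7% of the exon bases of Dnaaf2 on the other strand, which limits its value in the same way as that of Dnaaf1. On the same strand, Gm49383 shares 22.3% and Gm49384 20.6% of the exon bases of Dnaaf2. In Dnaaf3, Gm15873 on the other strand shares 12.6% and Tnni3 on the same strand 3.87%. In Dnaaf5, Gm15672 on the other strand shares 10.6%.

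Cytoplasmic dynein had group values within 1.2-fold of each other for 14 of 15 subunits, Dynlt1c being the exception. The heavy chain of cytoplasmic dynein, Dync1h1 (chromosome 12 from 110601395 to 110666944), had 2788 normalised reads with acrylamide and 2596 in control tissue (log2 ratio 0.10). The heavy chain of ciliary return transport, Dync2h1 (chromosome 9 from 6928550 to 7178306), had 155 with acrylamide and 146 in control tissue (log2 ratio 0.09). Both were slightly higher with acrylamide, by 7.42% and 6.59%, in values without replicate error. Both have transcripts of at least 10000 bases. Among genes with such transcripts and a mean of at least 100, the median log2 ratio was 0.11, so these ratios were not particular to the 2 heavy chains.

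The chains that link the motor to cargo also had close values in both groups. Dync1i2, the widely used intermediate chain, had 989 normalised reads with acrylamide and 1017 in control tissue, and Dync1i1, which is best known from neurons, had 159 with acrylamide and 180 in control tissue. Of the light intermediate chains, Dync1li2 was the most abundant, with 712 with acrylamide and 707 in control tissue, followed by Dync1li1 with 281 with acrylamide and 268 in control tissue. Dync2li1, the light intermediate chain of ciliary return transport, had the lowest group value of the cytoplasmic members, with 53.2 with acrylamide and 51.5 in control tissue.

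Of the 8 light chains of cytoplasmic dynein, 6 had a deposited ratio below 1 and the median log2 ratio was -0.13, which turned to 0.046 with 3 of 8 below 1 when the groups were scaled to the total of all genes. Dynlrb1, a light chain of the roadblock family, was the most abundant of them, with 2344 normalised reads with acrylamide and 2705 in control tissue (log2 ratio -0.21). Dynll1, a light chain that many other proteins also bind, had 1705 with acrylamide and 1930 in control tissue (log2 ratio -0.18), and its paralog Dynll2 had 968 with acrylamide and 909 in control tissue (log2 ratio 0.09). Dynlt1c had the lowest ratio of all cytoplasmic members, with 377 with acrylamide and 469 in control tissue (log2 ratio -0.31). It belongs to 4 near-identical copies (Dynlt1a, Dynlt1b, Dynlt1c and Dynlt1f), whose transcripts were 98.6 to 99.9% identical where aligned, so that the division of reads among them is uncertain. Their sum was 1035 normalised reads with acrylamide and 1163 in control tissue (log2 ratio -0.17). Among all genes with a mean of at least 100, the central 90 in 100 lay between log2 ratios of -0.25 and 0.30, and Dynlt1c lay below this range.

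Dynactin, the complex that holds dynein to its cargo and keeps it on the microtubule, had the narrowest range of ratios of the 3 classes. Dctn1, the long subunit that binds microtubules, had 1319 normalised reads with acrylamide and 1214 in control tissue (log2 ratio 0.12). Dctn2, a subunit of the shoulder of the complex, had 1298 with acrylamide and 1439 in control tissue (log2 ratio -0.15). Dctn3, its partner in the shoulder, had 627 with acrylamide and 611 in control tissue. Of the subunits at the pointed end of the filament, Dctn4 had 443 with acrylamide and 448 in control tissue, Dctn5 had 508 with acrylamide and 513 in control tissue, and Dctn6 had 365 with acrylamide and 367 in control tissue.

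By class, fold differences of 1.5 or more were found among axonemal members and not among cytoplasmic or dynactin members. Among the 36 members with a mean of at least 1, Dnah1, Dnah2, Dnah8 and Dnah9 had group values at least 1.5-fold higher with acrylamide, and Dnah11 was the only member at a ratio of at most 0.67. The first 4 had control values under 1 and reached that mean through the acrylamide value, as Dnah11 did through the control value, so that the filter itself favours a difference in them, and none of the 5 had a mean of 10 or more. Over all 15345 genes with such a mean, 8.26% were higher and 3.56% lower by these limits. These limits are passed more often by genes with few reads. Among the 3173 genes with reads per library, 28.1% were higher and 14.7% lower, against 4 and 1 of the 10 axonemal members in that range, which are the same 5 genes. Among the 8932 genes with a mean of at least 100, 1.03% were higher and 0.369% lower, and none of the members in that range. Of the 21 cytoplasmic and dynactin members, 20 differed by less than 1.2-fold, Dynlt1c being the exception.

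The median log2 ratio was 0.17 over the 15 axonemal members with a mean of at least 1, a set that includes Dnah1, Dnah2, Dnah8 and Dnah9 through their acrylamide values, and 0.01 over all 15345 genes. Over the 21 cytoplasmic and dynactin members it was -0.01 as deposited, and turned to 0.16, 0.04 and 0.01 when the groups were scaled to the total of all genes, to the total without the Svs genes and to the median of abundant genes. The deposited values of a group without a read are above 0 (0.186 in control tissue for Dnah1), so the ratio of the deposited values of Dnah1 and Dnah2 exceeds the bound that their reads give.

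**Figure D3:**
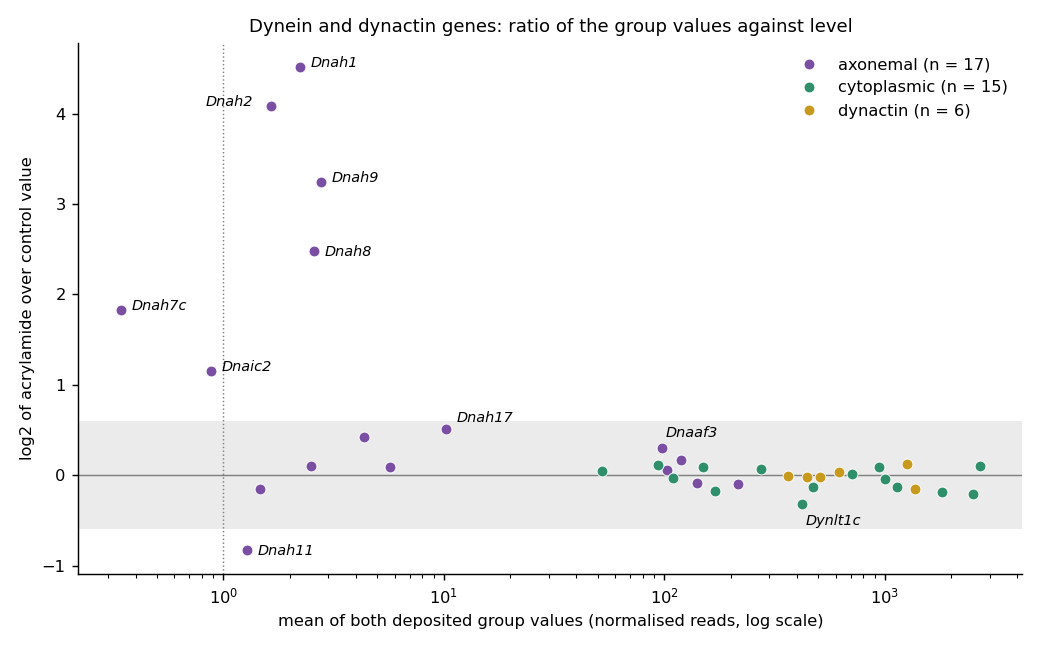
Log2 ratio of the acrylamide to the control group value of the 38 members (vertical axis) against the mean of both values in normalised reads (horizontal axis, log scale), coloured by class. The grey band spans ratios within 1.5-fold and the dotted line marks a mean of 1. The members outside the band are 6 axonemal heavy chains and Dnaic2, all with means under 10, and all 21 cytoplasmic and dynactin members lie inside the band.

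Divided by transcript length, the levels of the members in control tissue were lower for 12 of the 17 axonemal members than for every cytoplasmic and dynactin member, and overlapped with those for the other 5. The median control value per kilobase was 0.563 for the 17 axonemal members and 205 for the 21 cytoplasmic and dynactin members. It was highest for Dynlrb1 (3433 per kilobase, above 99.2% of genes with a length), followed by Dynll1 (861 per kilobase). Dync1h1 had 181 per kilobase and the dynactin subunit Dctn1 281 per kilobase. Dync2h1 was the lowest cytoplasmic member, with 10.2 per kilobase. The 5 axonemal members above it were the light chains Dnal4 (152 per kilobase) and Dnal1 (19.5 per kilobase) and the assembly factors Dnaaf5, Dnaaf3 and Dnaaf2, which lay between 29.9 and 41.9 per kilobase. Dnaaf1 had 1.97 and Dnaic1 1.48 per kilobase, and Dnah17, the highest axonemal heavy chain, 0.563 per kilobase. The acrylamide values gave 0.331 per kilobase for Dnah1, 0.364 for Dnah9, 0.261 for Dnah8 and 0.227 for Dnah2, all below the 0.801 of Dnah17 in the same tissue.

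**Figure D4:**
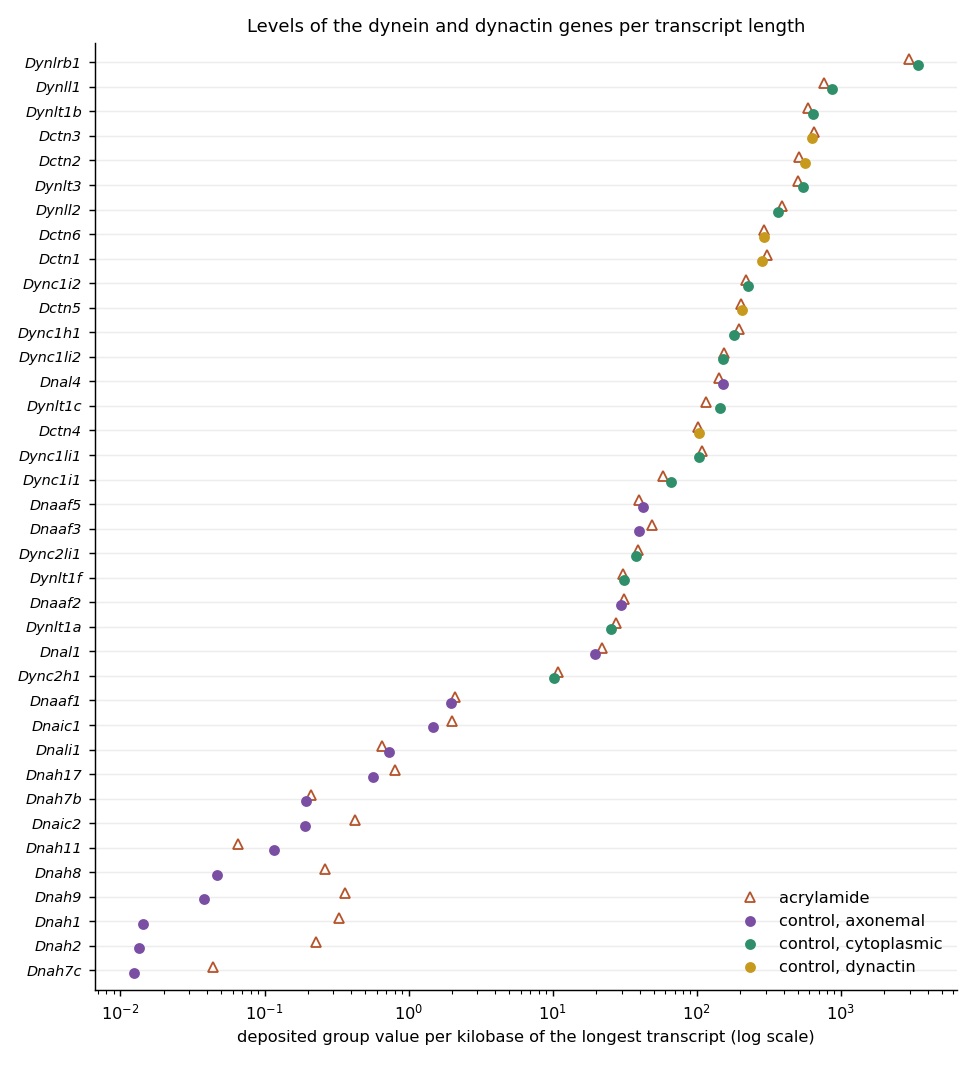
Group value per kilobase of the longest transcript (horizontal axis, log scale) for the 38 members, ordered by their control value. Filled circles are control tissue, coloured by class, and open triangles are acrylamide treated tissue. Circles and triangles lie close together for the cytoplasmic and dynactin members, and farthest apart for Dnah1, Dnah2, Dnah9 and Dnah8, whose control values are under 0.05 per kilobase.

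Genes that work with these motors were also counted. Adaptors, regulators and actin-like parts of the dynein and dynactin machinery were all measured (31 of 31), none of them at a 1.5-fold difference, with a median log2 ratio of 0.01. Pafah1b1, a regulator that binds the dynein motor, had 1160 normalised reads with acrylamide and 1144 in control tissue. Actr1a, the actin-like protein of the dynactin filament, had 1127 with acrylamide and 1210 in control tissue. Among 26 genes of transport in the primary cilium, which the Dync2h1 motor serves, 25 had a mean of at least 1 and none differed by 1.5-fold (median log2 ratio -0.01), with Ift46 at 1179 with acrylamide and 1320 in control tissue.

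Genes of motile cilia outside the family were counted against the shares over all genes. Of 59 listed genes 54 were measured and 35 had a mean of at least 1, of which 3 were at least 1.5-fold higher with acrylamide (Foxj1, Ccdc103 and Tekt2, against 8.26% of all genes) and 2 at a ratio of at most 0.67 (Wdr63 and Cfap54, against 3.56%), with a median log2 ratio of 0.08. Of the 17 with reads per library, none passed limma at an adjusted p of 0.1. Tekt2, a protein of the doublet microtubules, was the one of these 17 whose libraries did not overlap, against 2.3% of all genes tested, with 21, 13, 15 and 25 reads in acrylamide libraries 1 to 4 and 11, 10, 10 and 9 reads in control libraries 1 to 4 (exact two-sided permutation p = 0.0286). Cfap54, a protein of the central apparatus, had 10, 4, 18 and 5 reads in acrylamide libraries 1 to 4 and 24, 9, 12 and 14 reads in control libraries 1 to 4. Foxj1, the regulator that switches on motile cilium genes, had 4, 1, 1 and 1 reads in acrylamide libraries 1 to 4 and 0, 1, 1 and 1 reads in control libraries 1 to 4.

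Markers of other cell types were set beside the axonemal heavy chains. Of 11 markers of multiciliated cells, 10 were measured. The 6 with reads per library summed to between 12.9 and 21.6 normalised reads in acrylamide libraries and between 11.3 and 28.2 in control libraries. The others were more abundant and had group values only, led by Tppp3 (132 with acrylamide, 123 in control tissue). Group values of all 10 summed to 328 with acrylamide and 314.5 in control tissue. Single markers of this list went both ways. Hydin, a defining gene of the central apparatus, had 0 reads in acrylamide libraries and 3 in control libraries. Rsph4a went the other way, with 2, 4, 0 and 1 reads in acrylamide libraries 1 to 4. Its control libraries 1 to 4 held 0, 0, 1 and 0 reads. Of 18 markers of late germ cells and sperm, 9 were measured. The 6 with reads per library summed to between 16.6 and 21.5 normalised reads in acrylamide libraries and between 13.5 and 27.4 in control libraries. The others were again more abundant, led by Gapdhs (137 with acrylamide, 148 in control tissue). Group values of all 9 summed to 289.5 with acrylamide and 314.4 in control tissue. The defining gene Prm1 had 1 read, in acrylamide library 1. Markers of dividing cells had higher group values with acrylamide, with 10 of 10 at least 1.5-fold higher. Their group values summed to 699 with acrylamide and 300.4 in control tissue. Of 8 leukocyte markers with a mean of at least 1, 3 were at least 1.5-fold higher and none lower, against 8.26% and 3.56% of all genes. One of them, Ms4a1, reached that mean through its acrylamide value (2.55, against 0.788 in control tissue). Group values have no spread. The 3 leukocyte markers with reads per library overlapped, with sums between 7.79 and 40.4 normalised reads in acrylamide libraries and between 10.8 and 18.6 in control libraries. The part of these cells in the reads of the heavy chains was not tested.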

How the data were processed

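Seminal vesicle RNA of 4 acrylamide treated and 4 control mice was examined. According to the methods of the study and the submitters' processing notes, reads were mapped to mm10 with HISAT2, counted with RSEM and compared with DESeq2, and further steps used StringTie and Cufflinks (versions not given in the sources used here). In the deposited signal columns the authors give each gene 1 value for acrylamide and 1 for control, as reads divided by DESeq2 size factors and not by length. Columns of the authors' own comparison (fold changes and p-values) were not read directly. All 8 libraries were used in every test, and the depth per library is known here only over the genes with few reads.

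For each such gene, the average of its acrylamide and control values equals a sum of whole reads divided by size factors over 8 libraries. Genes with a single read gave the 8 weights, and 5086 of 5087 genes with at most 150 summed normalised reads had exactly 1 solution. The method and the limma fit were tested on simulated data. Genes with a mean of at least 1 were fitted with limma 3.58.1 (R 4.3.3, trend) on log2 of normalised reads with 1 added, with Benjamini-Hochberg adjustment over all 3173 genes and a threshold of 0.1, and single genes were compared by exact permutation. p-values measure the spread between libraries. Transcript lengths came from GENCODE vM21. Python 3.11.15 with numpy 2.4.6, pandas 2.3.3, scipy 1.17.1 and numba 0.67.0 was used.

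The members and lists were chosen with earlier results of these data known. Named genes were all heavy chains, members past a threshold, those with the largest ratios per class, and the most and least abundant of each subunit class. Of other lists, genes past the fold threshold and up to 3 abundant ones were named. Foxj1, Wdr63, Dyx1c1, Hydin, Rsph4a and Prm1 were named after their values were seen. Other lists were counted for smooth muscle (1 of 6 genes at least 1.5-fold higher), Schwann cells (0 of 5), neurons (2 of 8 higher, 1 lower), prostate (1 of 6 higher) and epididymis (1 gene with a mean of at least 1, lower). Alternatives were other scalings, filters, thresholds, pseudocounts, a length correction, voom and leaving out each library.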

Additional observations from a re-analysis of the deposited data

Results flagged for a closer look

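In 7 of 21 groups of 4 libraries, a library stood apart from the other 3 by Dixon's criterion. Chance flags about 1 in 20 groups of continuous values, but a group with reads in 1 library only always meets the criterion, which was so in 5 of the 7. The highest acrylamide library had 3.68 normalised reads of Dnah11, 2.76 of Dnah7c and 9.73 of Dnaic1. The highest control library had 3.11 normalised reads of Dnah8, 2.07 of Dnah9, 2.26 of Dnaic2 and 2.94 of Dnali1. In Dnah11, Dnah7c, Dnah8, Dnah9 and Dnaic2 the other 3 libraries of the group held 0 reads.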

How the results depend on the processing

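No dynein gene passed limma at an adjusted p of 0.1 under any alternative, also at a threshold of 0.05, and 1 (Dnah1) had an exact permutation p under 0.05 without adjustment. The counts of 4 axonemal members higher and 1 lower by 1.5-fold fell to 0 and 0 with a minimum mean of 10 or of 50, and became 6 and 1 both without a filter and when scaled to the total of all genes. At 1.2-fold, 7 axonemal members were higher and 1 lower, and 1 cytoplasmic member was lower. At 2-fold, 4 axonemal members were higher and 0 lower. The shares over all genes were not counted under these filters, scalings and thresholds, so these counts have no background to be read against. Leaving out each library in turn was an alternative chosen after seeing the data. The number of axonemal members at least 1.5-fold higher in mean normalised reads then ranged between 4 and 5. The number whose libraries did not overlap ranged between 1 and 2. It was 2 without acrylamide library 1, 2 or 3, where Dnah9, Dnah2 and Dnah17 joined Dnah1. The shares over all genes were not counted with a library left out, and groups with fewer libraries separate more easily.

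Scaling to the total of all genes shifted all genes by 0.17 on the log2 scale. The axonemal median log2 ratio, 0.17, became 0.35 with that scaling, 0.23 with the total without Svs genes, 0.20 when centred, 0.30 without a filter, 0.12 and 0.058 with a minimum mean of 10 and 50, and 0.15 with the length trend subtracted. The cytoplasmic and dynactin median became 0.16, 0.043 and 0.0085 under the scalings, a change of sign from -0.01. Per kilobase of exon union, the class medians were 0.523 and 129.

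Log2 differences near 0 changed sign. Dnaaf1 gave 0.032 with a pseudocount of 5 and between -0.38 and 0.49 without single libraries. Dnah7b gave -0.081 with library totals, -0.057 with medians of ratios and between -0.49 and 0.55 without single libraries. Dnali1 lay between -0.14 and 0.18 without single libraries. No paired analysis was possible because the recovered libraries carry no replicate number of the labels.

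A count of 0 reads in 4 control libraries, as in Dnah1 and Dnah2, allows up to 3 reads over these libraries, for counting error only.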
